A study of Mus musculus with 6 samples.

Results

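Genes of the ATP-binding cassette (ABC) transporter family were described in bulk RNA-seq of sorted epithelial cells of the mouse prostate that carried a lineage mark. The members were all rows of the count table whose symbol was Abc, a letter from a to g for the subfamily, a number and at most 1 further letter. This rule, which uses names and no measured value, gave 50 of 24498 genes in 7 subfamilies, and all 50 had a count in at least 1 library. ABC proteins that go by other symbols (Cftr, Tap1 and Tap2) are not members and are given apart. Cells came from male mice of 2 lines. In the line labelled Nkx, a tamoxifen-inducible Cre recombinase (CreER(T2)) under the driver of that name was combined with an EYFP reporter at the ROSA26 locus. In the line labelled Clu, CreER(T2) was under the Clu driver (Clu encodes clusterin, a secreted chaperone) and was combined with a tdTomato reporter at the same locus. A reporter switched on in this way marks the cells in which the driver was active at induction and their progeny. At 8 weeks of age the animals were castrated or left intact, and after 4 weeks the tissue was digested and marker-positive cells were sorted by flow cytometry. The 3 groups were Nkx intact, Nkx castrate and Clu intact, with 2 libraries each, named here by group and number. Neither a Clu castrate group nor the time of Cre induction is given by the labels. They also do not state whether libraries of 1 group are from different animals, so all p-values rest on a spread between libraries that may be technical.

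ABC proteins bind and hydrolyse ATP at a pair of nucleotide-binding domains, and in most members this drives a substrate across a membrane. The Abca and Abcg subfamilies mainly move lipids and sterols, Abcb holds drug pumps and mitochondrial and lysosomal carriers, Abcc holds exporters of organic anions and the receptor subunits of potassium channels, and Abcd carries fatty acyl groups into peroxisomes. Abce and Abcf proteins have the ATP-binding domains but no membrane part, and act in translation. In the human prostate ABCC4, an exporter of cyclic nucleotides, prostaglandins and steroid conjugates, is known as an androgen-responsive gene, which is why Abcc4 is described first.

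Depth lay between 10220118 and 17412874 counts per library, and 1 count was worth 0.0561 to 0.0988 CPM, that is counts relative to the TMM-scaled library total. The genes that check the labels differed between groups: Pbsn, an androgen-dependent secretory gene, was at 5393 and 6937 CPM in the intact Nkx libraries, 106 and 112 in the castrates, and 2634 and 1957 in the Clu line, and Clu was at 323 and 245 CPM in the intact Nkx libraries, 721 and 844 in the castrates, and 1808 and 1934 in the Clu line. Nkx castrate 1 stood apart: it had a count in 18516 genes against 15045 to 15778 elsewhere. It was also the deepest library, with 17412874 counts, followed by Nkx castrate 2 with 14326063. The part of depth in the number of genes with a count was not tested. The summed level of the 12 endothelial markers was 82.6 and 57.0 CPM in the intact Nkx libraries, 518 and 75.0 in the castrates, and 1179 and 485 in the Clu line. The 13 fibroblast and smooth muscle markers summed to 752 and 615 CPM in the intact Nkx libraries, 2221 and 564 in the castrates, and 715 and 580.5 in the Clu line. The 16 leukocyte markers summed to 214 and 216 CPM in the intact Nkx libraries, 498 and 105 in the castrates, and 47.4 and 49.0 in the Clu line. For the 9 basal markers the sum was 5230.0 and 5402 CPM in the intact Nkx libraries, 5103 and 3163 in the castrates, and 2979 and 3152 in the Clu line. The 10 secretory luminal markers summed to 17320.0 and 21550.0 CPM in the intact Nkx libraries, 4642 and 5570.0 in the castrates, and 10440.0 and 8474 in the Clu line, lowest in Nkx castrate. The 8 proximal luminal markers summed to 692 and 774 CPM in the intact Nkx libraries, 2173 and 3249 in the castrates, and 6165 and 7129 in the Clu line, with no overlap of the groups. The 6 urothelial markers summed to 246 and 268 CPM in the intact Nkx libraries, 1127 and 1514 in the castrates, and 537 and 530.1 in the Clu line. The 6 neuroendocrine markers summed to at most 9.09 CPM in any library. The 7 seminal vesicle genes summed to 81.3 and 148 CPM in the intact Nkx libraries, 0.449 and 0 in the castrates, and 4.98 and 0 in the Clu line.

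The 50 members summed to 1595 ± 93.4 CPM (SD, n = 2) in Nkx intact, 1448 ± 148 CPM in Nkx castrate and 2167 ± 0.687 CPM in Clu intact. Between 0.137% and 0.225% of a library's counts came from them. The Abcc subfamily differed most between the groups by its sum: it summed to 305 and 314 CPM in the intact Nkx libraries, 305 and 322 in the castrates, and 766 and 757 in the Clu line. Both Clu intact libraries were thus above all 4 Nkx libraries. Abcc3 and Abcc4 together made up 68.3% and 69.3% of this sum in the intact Nkx libraries, 51.0% and 68.98% in the castrates, and 81.5% and 84.0% in the Clu line. The 4 Abcd genes summed to 122 and 124 CPM in the intact Nkx libraries, 83.0 and 132 in the castrates, and 206 and 242 in the Clu line. The 10 Abcb genes summed to 66.1 and 61.5 CPM in the intact Nkx libraries, 73.0 and 72.8 in the castrates, and 106 and 92.1 in the Clu line. Both sums were also higher in each Clu intact library than in any Nkx library. The 16 Abca genes summed to 702 and 575 CPM in the intact Nkx libraries, 450.4 and 496 in the castrates, and 648 and 584 in the Clu line, with the 2 castrate libraries lowest. The 3 Abcf genes lay between 309 and 366 CPM with no group apart from the others, and the 6 Abcg genes, the lowest subfamily in every library, between 7.84 and 24.8 CPM. These sums are a description without a test.

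**Figure D1:**
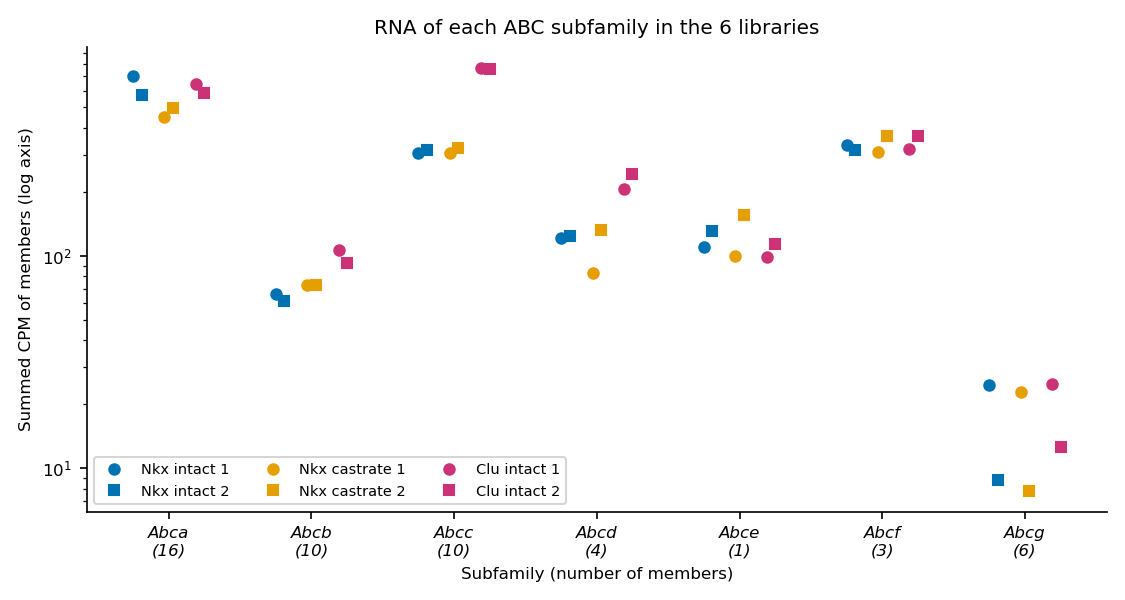
Summed CPM (log axis) of the members of each ABC subfamily, with the number of members in parentheses on the x axis; circles are replicate 1 and squares replicate 2 of each group. The Abcc sums of the 2 Clu intact libraries, 766 and 757 CPM, lie above the 4 Nkx libraries, which lie between 305 and 322 CPM.

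Levels of different genes were compared as CPM per kb of annotated exon, since long genes collect more reads. By the mean over the 6 libraries the highest were Abcf1 (48.3 CPM per kb) and Abcc3 (47.2 CPM per kb), followed by Abcf2 (25.4), Abcd3 (20.2), Abce1 (19.7) and Abca1 (17.7 CPM per kb). The order changed with the group. In Nkx intact Abcf1 led with 44.8 CPM per kb, against 29.7 for Abcc3. In Clu intact Abcc3 led with 81.7 CPM per kb, against 51.3 for Abcf1, and within each of these groups the values of the 2 genes did not overlap. Abcc4 stood at 6.81 CPM per kb in Nkx intact, 2.66 in Nkx castrate and 25.8 in Clu intact. Exon lengths came from an earlier annotation than the one behind the counts, so these levels are approximate. They also take in the exons of all annotated transcripts of a gene, which can exceed the length of the RNA present.

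**Figure D2:**
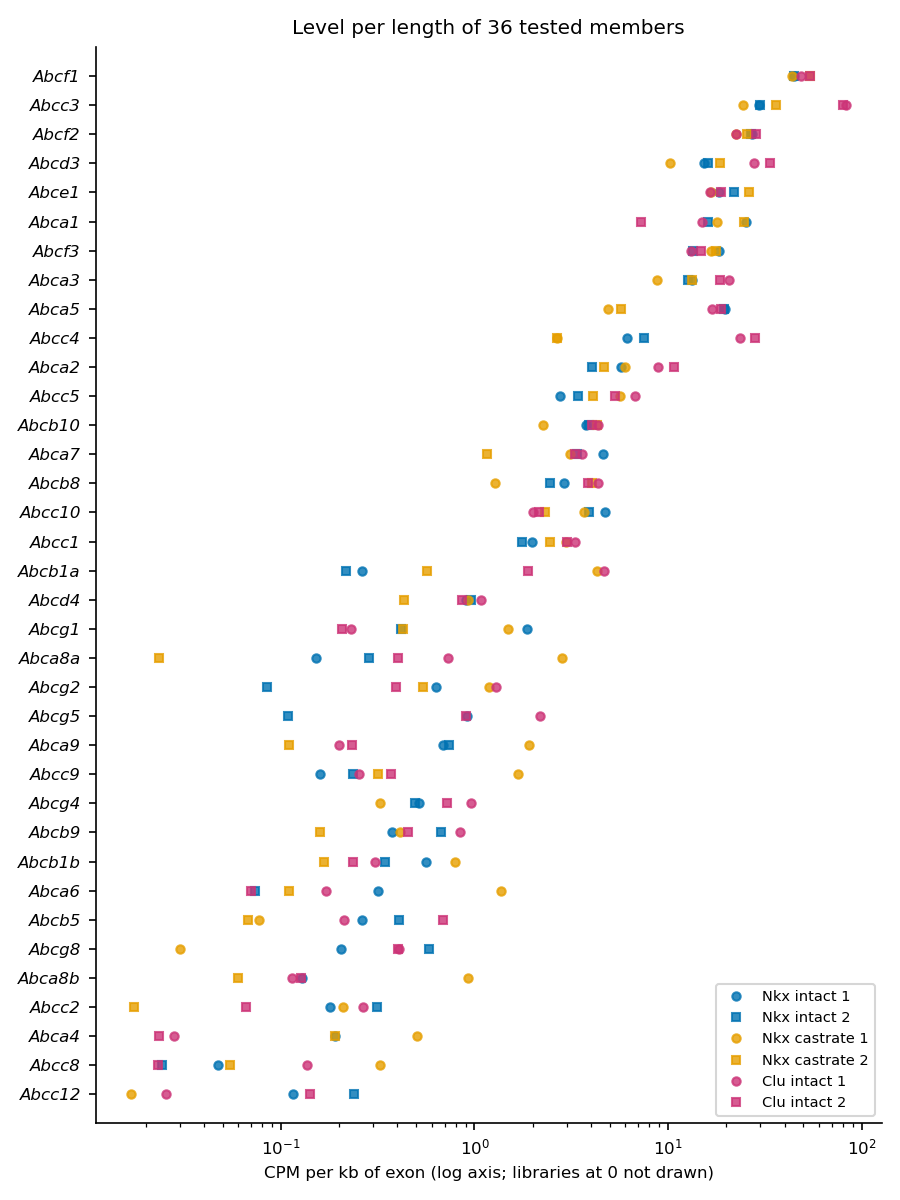
Level of 36 of the 38 tested members as CPM per kb of exon (log axis), ordered by the mean over all libraries; each point is a library, and libraries at 0 are not drawn. Abcf1 and Abcc3 head the order, and the Clu intact points of Abcc3 and Abcc4 lie to the right of the Nkx points.

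Of the 50 members, 38 passed the filter on low counts and were tested together with all other genes, 13846 in all. The 12 that did not pass (Abca12 to Abca17, Abcb4, Abcb6, Abcb11, Abcc6, Abcd2 and Abcg3) had 2 to 32 counts over the 6 libraries and reached at most 1.12 CPM in any library. A gene was called when its p from edgeR's quasi-likelihood test, adjusted over all tested genes by Benjamini-Hochberg, was under 0.05. After castration of the Nkx line, 2 of the 38 members were lower (Abca5 and Abcc4) and 0 were higher, where 4.59% of all genes were called lower, 4.02% higher and 8.61% in either direction. At an unadjusted p under 0.05 there were 4 members higher and 5 lower, DESeq2 called 1 higher and 4 lower, and limma-voom 0 higher and 2 lower. In Clu intact against Nkx intact, 5 members were higher (Abca2, Abcb1a, Abcc3, Abcc4 and Abcc5) and 0 lower, where 6.29% of all genes were called higher, 5.0% lower and 11.3% in either direction. Unadjusted, 8 members were higher and 3 lower, DESeq2 called 7 higher and 2 lower, and limma-voom 3 higher and 0 lower. In Clu intact against Nkx castrate, 7 were higher (Abca2, Abca3, Abca5, Abcc3, Abcc4, Abcd3 and Abcg5) and 0 lower, where 8.82% of all genes were called higher, 8.1% lower and 16.9% in either direction. Unadjusted, 10 were higher and 3 lower, DESeq2 called 8 higher and 1 lower, and limma-voom 6 higher and 0 lower. The comparisons share groups, so their counts are not independent. Clu intact and Nkx castrate differ both in line, with its driver and reporter, and in castration. Without a Clu castrate group these cannot be told apart in that comparison. Of all 13846 tested genes, 3262, 3634 and 4495 had an unadjusted p under 0.05 in the 3 comparisons (edgeR quasi-likelihood). The median log2 fold change of the 38 members was -0.001, 0.29 and 0.39 in this order, against 0.047, -0.008 and -0.003 over all genes tested. Leaving out Nkx castrate 1 made the counts of members 0 higher and 4 lower, 8 and 3, and 11 and 2, and leaving out Nkx castrate 2 made them 4 and 2, 8 and 4, and 7 and 5. The omission of Nkx intact 1 gave 0 and 2, 1 and 0, and 4 and 0, and that of Nkx intact 2 gave 0 and 1, 1 and 0, and 4 and 0. Without Clu intact 1 they were 0 and 2, 2 and 0, and 3 and 1, while the omission of Clu intact 2 gave 0 and 2, 2 and 0, and 3 and 0.

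Markers of the epithelial types also moved with the groups in which ABC genes were called. Beside the counts of all marker lists stand 8.61%, 11.3% and 16.9% of all genes called in either direction in the 3 comparisons. After castration 5 of the 8 markers of proximal luminal cells rose and 1 fell, and in Clu intact 8 were higher and 0 lower than in Nkx intact, and 6 and 0 against Nkx castrate. The castration counts were 1 and 0 on omission of either intact Nkx library, and 5 and 3 on omission of Nkx castrate 1. The counts against Nkx castrate were 6 and 1 on omission of Nkx castrate 1. For edgeR's counts of 0, the numbers at an unadjusted p under 0.05, by DESeq2 and by limma-voom were 0, 0 and 0 for those lower in Clu intact than in Nkx intact and lower in Clu intact than in Nkx castrate. Of the 10 secretory luminal markers, 2 rose and 5 fell after castration, and in Clu intact 2 were higher and 4 lower than in Nkx intact, and 5 and 2 against Nkx castrate. The castration counts were 0 and 5 on omission of either intact Nkx library. The counts between the intact lines were 1 and 2 on omission of Nkx intact 1 or Clu intact 1, and 1 and 1 on omission of Nkx intact 2 or Clu intact 2. Those against Nkx castrate were 5 and 1 on omission of either intact Nkx library or either Clu library. Of the 9 basal markers, 0 rose and 2 fell after castration, and in Clu intact 0 were higher and 4 lower than in Nkx intact, and 0 and 2 against Nkx castrate. The castration counts were 0 and 0 on omission of either intact Nkx library, and 0 and 6 on omission of Nkx castrate 1. The counts between the intact lines were 0 and 2 on omission of either intact Nkx library, and 0 and 7 on omission of either castrate Nkx library. Those against Nkx castrate were 0 and 0 on omission of either intact Nkx library or Clu intact 1, and 0 and 6 on omission of Nkx castrate 2. Where edgeR gave 0, the unadjusted, DESeq2 and limma-voom counts were 0, 0 and 0 for those higher after castration, higher in Clu intact than in Nkx intact and higher in Clu intact than in Nkx castrate. Without the filter on low counts the basal markers called lower numbered 5, 7 and 4 in the 3 comparisons, and by DESeq2 2, 7 and 4; in fits of 2 groups alone they were 2, 7 and 0. The proximal luminal markers that rose after castration became 3 by limma-voom and 3, with 0 lower, in a fit of these 2 groups alone. Of the 6 urothelial markers 5 were tested, and 3 of these rose and 0 fell after castration. In Clu intact 3 were higher and 0 lower than in Nkx intact, and 1 and 2 against Nkx castrate. At an unadjusted p under 0.05 (edgeR quasi-likelihood) the numbers were 3 and 0, 3 and 0, and 2 and 2. The part of the makeup of epithelial types in the levels of Abcc4, Abcc3 and the other called members was not tested.

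A looser description, without a test, is whether the libraries of 2 groups overlap at all. After castration 5 members had both castrate libraries above both intact ones and 11 had both below, where 25.4% and 24.6% of all tested genes did. Clu intact lay wholly above Nkx intact for 15 members and below it for 6, where 31.9% and 31.3% of all genes did. Set against Nkx castrate, it lay above for 16 members and below for 5, where 31.5% and 30.0% of all genes did. All 3 groups were apart from each other for 5 members, and the other 33 overlapped somewhere. The order Nkx castrate, Nkx intact, Clu intact, from low to high, held for Abcc4 and Abcg4, and for 5.34% of all genes. Abca5 had the order Nkx castrate, Clu intact, Nkx intact (3.84% of all genes), Abcc1 the order Nkx intact, Nkx castrate, Clu intact (3.63%) and Abcc10 the reverse of that of Abcc1 (2.81%). No member had the orders Nkx intact, Clu intact, Nkx castrate (2.93% of all genes) or Clu intact, Nkx intact, Nkx castrate (6.05%).

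**Figure D3:**
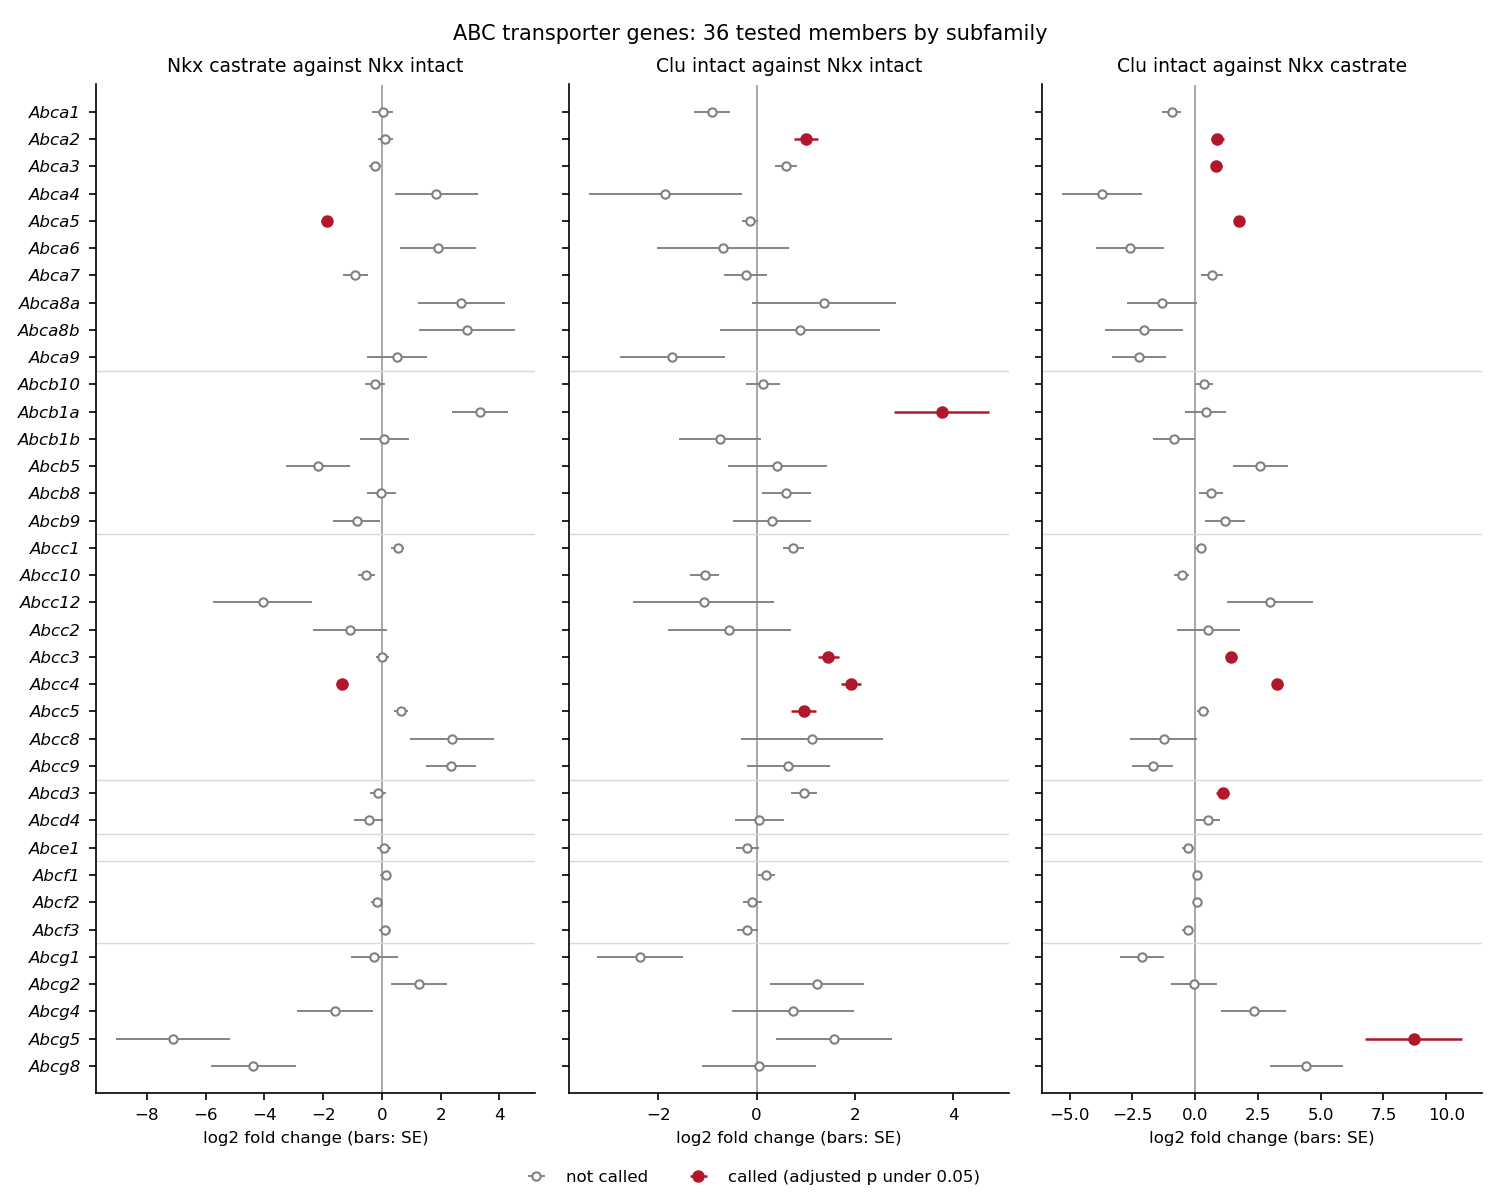
Log2 fold change (x axis) of 36 of the 38 tested members in the 3 comparisons, by subfamily; bars are the SE of the fit and filled red points are called at an adjusted p under 0.05. The called members are 2 to the left of 0 in the first panel, and 5 and 7 to the right of 0 in the others; the fitted value of Abcg5 in the first and last panels is set against a group with 0 counts and is not a bound.

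Abcc4 fell with castration and was highest in the Clu line. It was at 39.2 and 47.8 CPM in the intact Nkx libraries, 16.9 and 17.0 in the castrates, and 151 and 179 in the Clu line. The 3 groups did not overlap, in the order Nkx castrate, Nkx intact, Clu intact. The means were 43.5 ± 6.07 CPM (SD, n = 2), 17.0 ± 0.0381 CPM (SD, n = 2) and 165 ± 20.2 CPM (SD, n = 2). The log2 fold change after castration was -1.36 (SE 0.20), a 2.56-fold lower level. Against Nkx intact the Clu line was 3.79-fold higher (log2 fold change 1.92, SE 0.20), and against Nkx castrate 9.71-fold higher (log2 fold change 3.28, SE 0.21). Adjusted p was 0.00682, 0.00136 and 0.000204 by edgeR quasi-likelihood, Benjamini-Hochberg adjusted. The castration call was lost without Nkx intact 2, where adjusted p was 0.0823 with a log2 fold change of -1.21; the calls for Clu intact held without any single library. In bulk RNA fewer cells of a type and less RNA per cell cannot be told apart.

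Beside Abcc4, Fkbp5, a co-chaperone gene induced by androgen, was at 193 and 143 CPM in the intact Nkx libraries, 33.6 and 19.3 in the castrates, and 432 and 764 in the Clu line, again lowest in Nkx castrate and highest in Clu intact. Tmprss2, a protease gene and androgen target, was at 283 and 291 CPM in the intact Nkx libraries, 164 and 187 in the castrates, and 278 and 289 in the Clu line. Pbsn, given above, was lower in Clu intact than in Nkx intact (log2 fold change -1.43, SE 0.23), so the groups did not fall in the same order for the 2 genes Pbsn and Abcc4. Of the 6 genes listed as checks of androgen state and line, 2 rose after castration, Clu among them, and 4 fell (Pbsn, Tgm4, Fkbp5 and Tmprss2). In Clu intact against Nkx intact 2 were higher (Clu and Fkbp5) and 1 lower (Pbsn). Against Nkx castrate 5 were higher in Clu intact and 0 lower. The castration counts were 1 and 2 on omission of Nkx intact 1, and 0 and 3 on omission of Nkx intact 2. With Clu intact against Nkx intact they were 1 and 1 on omission of Nkx intact 1, 1 and 0 on omission of Nkx intact 2 or Clu intact 2, and 3 and 2 on omission of either castrate Nkx library. Against Nkx castrate they were 5 and 1 on omission of Nkx castrate 1. At an unadjusted p under 0.05, by DESeq2 and by limma-voom, edgeR's 0 became 1, 1 and 1 for those lower in Clu intact than in Nkx castrate.

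The promoters of the 2 members that fell after castration are shown since androgen response motifs were searched at their starts. Each sequence runs from 250 bases before to 50 bases after a transcript start of the RefSeq annotation on build GRCm38.p6, which is older than the GRCm39 build behind the counts. Abcc4 has 2 listed starts. Capitals mark the response half-site AGAACA or its reverse complement TGTTCT, and the GC box GGGCGG or its reverse complement CCGCCC.
Abcc4, start at chr14:118706170-118706469, minus strand: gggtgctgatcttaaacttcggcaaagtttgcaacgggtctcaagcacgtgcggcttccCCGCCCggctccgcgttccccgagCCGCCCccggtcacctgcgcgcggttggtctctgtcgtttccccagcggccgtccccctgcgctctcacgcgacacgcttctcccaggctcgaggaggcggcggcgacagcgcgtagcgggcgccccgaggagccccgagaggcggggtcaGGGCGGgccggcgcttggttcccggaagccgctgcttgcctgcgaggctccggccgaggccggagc
Abcc4, start at chr14:118676882-118677181, minus strand: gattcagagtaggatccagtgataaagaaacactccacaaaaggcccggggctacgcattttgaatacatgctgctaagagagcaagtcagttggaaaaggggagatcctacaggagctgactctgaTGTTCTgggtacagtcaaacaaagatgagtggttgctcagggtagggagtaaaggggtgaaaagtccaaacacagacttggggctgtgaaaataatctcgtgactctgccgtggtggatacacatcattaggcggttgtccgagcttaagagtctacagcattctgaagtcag
Abca5, start at chr11:110337667-110337966, minus strand: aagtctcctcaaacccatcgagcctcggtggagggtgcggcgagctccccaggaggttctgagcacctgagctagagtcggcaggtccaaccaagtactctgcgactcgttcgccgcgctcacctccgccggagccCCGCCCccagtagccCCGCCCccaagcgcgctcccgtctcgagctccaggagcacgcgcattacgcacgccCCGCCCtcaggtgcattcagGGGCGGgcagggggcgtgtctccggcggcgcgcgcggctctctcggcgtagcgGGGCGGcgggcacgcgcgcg
The first Abcc4 window held 3 GC boxes and no half-site, and the second held no GC box and 1 half-site, at position -123 from the start. The Abca5 window held 5 GC boxes and no half-site. Of 32851 promoters of this length in the table, 19.0% held a half-site and 35.7% a GC box on either strand. Among the 45 promoters of the 38 members that the table lists (by symbol, out of 50 members), 11 held a half-site and 21 a GC box. The full element, AGAACA and TGTTCT with 3 bases between, was in 3 of all promoters and in 0 of these 45. A match or its lack describes these letters in this window only.

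Abcc3, another exporter of organic anions and conjugated bile salts, was higher in the Clu line and was not called after castration. It was at 169 and 170.0 CPM in the intact Nkx libraries, 138 and 205 in the castrates, and 474 and 456 in the Clu line. Both Clu intact libraries were above all Nkx libraries. The log2 fold change was 1.46 (SE 0.21) against Nkx intact and 1.44 (SE 0.21) against Nkx castrate, that is 2.75-fold and 2.71-fold higher, with adjusted p of 0.00528 and 0.00413 (edgeR quasi-likelihood, Benjamini-Hochberg). After castration it was 0.02 (SE 0.21). The call against Nkx intact was lost on omission of either intact Nkx library (adjusted p at most 0.075). Abcc4 stood at 0.232 and 0.281 of the CPM of Abcc3 in the intact Nkx libraries, 0.123 and 0.0830 in the castrates, and 0.318 and 0.393 in the Clu line.

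Abcc5, an exporter of cyclic nucleotides and nucleotide analogues, was called higher in Clu intact than in Nkx intact. It was at 29.6 and 36.6 CPM in the intact Nkx libraries, 60.2 and 43.8 in the castrates, and 72.1 and 56.7 in the Clu line. The 2 Nkx intact libraries were lowest, and the other 4 overlapped. Clu intact had a log2 fold change of 0.96 (SE 0.25) (adjusted p = 0.0464, edgeR quasi-likelihood, Benjamini-Hochberg) and Nkx castrate a value of 0.65 (SE 0.25) (adjusted p = 0.163). The call was lost without either intact Nkx library or either Clu library, where adjusted p reached 0.294, and under limma-voom. The following members of the subfamily were chosen after their values were seen. Abcc1, the first multidrug resistance protein of the subfamily, was at 29.8 and 26.7 CPM in the intact Nkx libraries, 44.9 and 37.0 in the castrates, and 49.8 and 45.2 in the Clu line, with Nkx intact lowest and Clu intact highest and no overlap, and with no call (adjusted p = 0.181 after castration and 0.065 in Clu intact against Nkx intact). In the latter comparison it was called higher by DESeq2, with the replicate number as a block, in a fit of these 2 groups alone and on omission of either castrate Nkx library. Abcc10, a broad drug exporter, was at 32.4 and 26.9 CPM in the intact Nkx libraries, 25.4 and 15.8 in the castrates, and 13.7 and 14.8 in the Clu line, the opposite order, also without a call (adjusted p = 0.0637 in Clu intact against Nkx intact). It was called lower there under the same alternatives as Abcc1 was called higher, and also without the filter on low counts. Abcc2, Abcc8, Abcc9 and Abcc12 stayed under 3 CPM in every library except Abcc9 in Nkx castrate 1 and Clu intact 2. The 9 members grouped as drug and anion exporters (Abcb1a, Abcb1b, Abcc1 to Abcc5, Abcc10 and Abcg2) were all tested. They were grouped with earlier results of these data known, so their counts are a description and no independent evidence. In Clu intact against Nkx intact 4 of them were higher and 0 lower, where 6.29% and 5.0% of all genes were called. On omission of either intact Nkx library 1 was higher (Abcc4), on omission of either Clu library 2 (Abcc3 and Abcc4), and on omission of either castrate Nkx library 5 were higher and 1 lower. After castration 0 were higher and 1 lower (4.02% and 4.59% of all genes), which became 0 and 0 without Nkx intact 2, and 2 and 1 without Nkx castrate 2. In Clu intact against Nkx castrate 2 were higher and 0 lower (8.82% and 8.1% of all genes), which became 3 and 0 without Nkx castrate 1. For the counts of 0 from edgeR, the numbers at an unadjusted p under 0.05, by DESeq2 and by limma-voom were 3, 1 and 0 for those higher after castration, 1, 1 and 0 for those lower in Clu intact than in Nkx intact, and 0, 0 and 0 for those lower than in Nkx castrate.

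**Figure D4:**
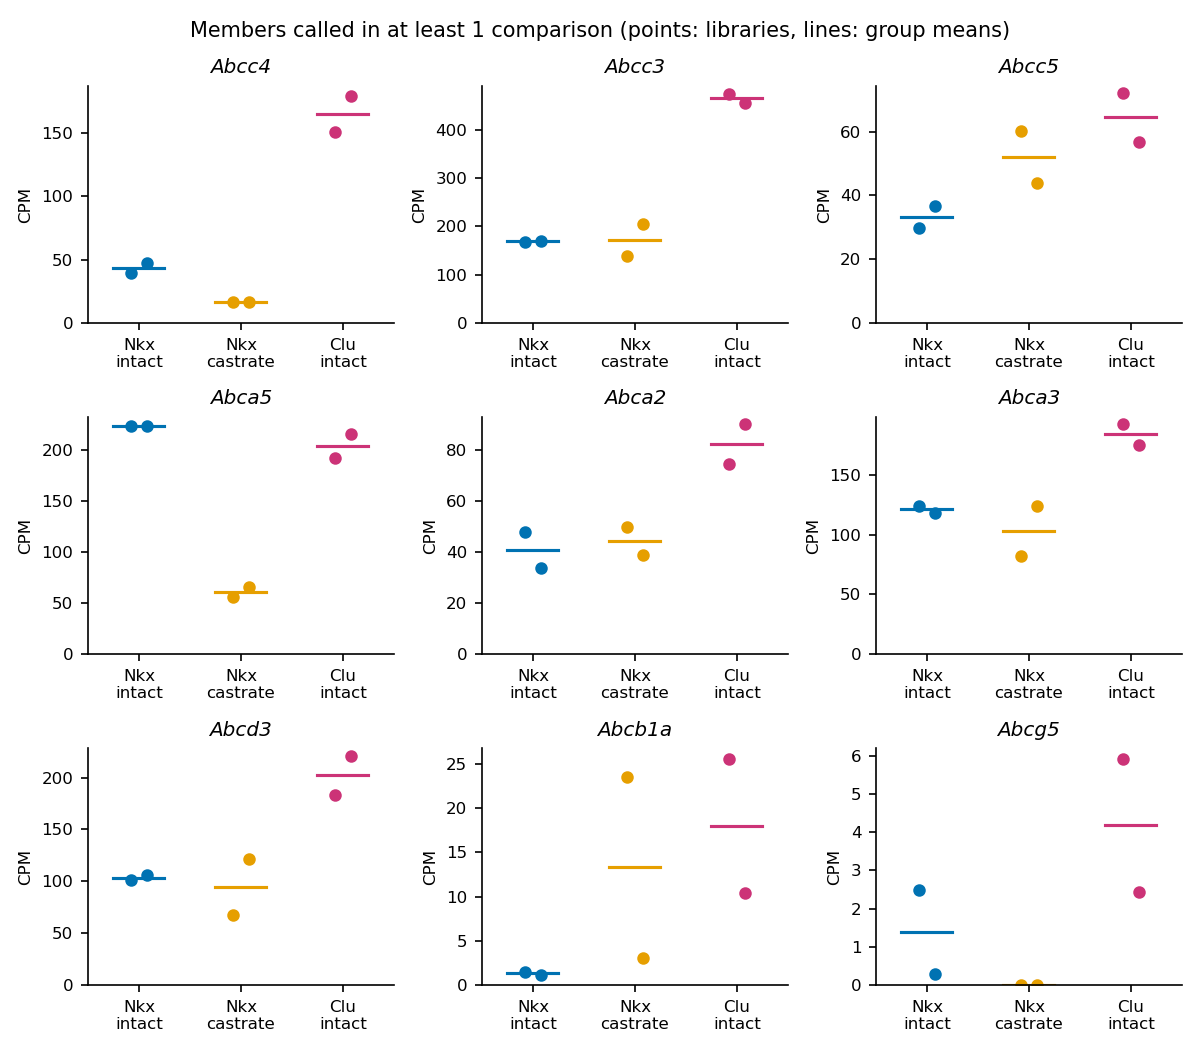
CPM (y axis from 0) of the 9 members called in at least 1 comparison; points are libraries and lines the means of the 2 libraries of a group. Abcc4 and Abca5 are low in both Nkx castrate libraries, and Abcb1a is high in 1 of the 2 castrate libraries, at 23.5 against 3.11 CPM.

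In the Abca subfamily, Abca5 fell after castration. Abca5 encodes a lysosomal and endosomal lipid transporter. It was at 224 and 224 CPM in the intact Nkx libraries, 56.0 and 65.5 in the castrates, and 193 and 216 in the Clu line. Both castrate libraries lay below the other 4. After castration the log2 fold change was -1.88 (SE 0.17), 3.69-fold lower, and 1.75 (SE 0.17) in Clu intact against Nkx castrate, 3.36-fold higher. Adjusted p was 0.00127 and 0.00082 (edgeR quasi-likelihood, Benjamini-Hochberg), and both calls held on omission of each library in turn (highest adjusted p 0.0287 and 0.00899). Between the intact lines the log2 fold change was -0.13 (SE 0.17) with adjusted p = 0.667, not called.

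Abca2, a lipid transporter of endolysosomes best known from myelin-forming cells, and Abca3, the phospholipid transporter of surfactant-storing organelles in the lung, had their highest levels in the Clu line. Abca2 was at 47.9 and 33.7 CPM in the intact Nkx libraries, 49.9 and 38.7 in the castrates, and 74.3 and 89.9 in the Clu line. Its log2 fold change was 1.01 (SE 0.25) against Nkx intact and 0.89 (SE 0.25) against Nkx castrate (adjusted p = 0.0396 and 0.0458, edgeR quasi-likelihood, Benjamini-Hochberg). Abca3 was at 124 and 118 CPM in the intact Nkx libraries, 82.2 and 124 in the castrates, and 193 and 175 in the Clu line, with a log2 fold change of 0.83 (SE 0.22) against Nkx castrate (adjusted p = 0.0366) and of 0.60 (SE 0.22) against Nkx intact (adjusted p = 0.127, not called). For both genes every Clu intact library was above every Nkx library. These calls were near the threshold. For Abca2 the call against Nkx intact was lost without either intact Nkx library or either Clu library (adjusted p of up to 0.265) and that against Nkx castrate without either intact Nkx library, Nkx castrate 2 or either Clu library (up to 0.288). The call of Abca3 was lost without either intact Nkx library or either Clu library (up to 0.178), and both calls against Nkx castrate were lost when only these 2 groups were fitted. Against Nkx intact Abca3 was called on omission of either castrate Nkx library, without the filter on low counts and in a fit of these 2 groups alone.

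Abca1, which loads cellular cholesterol onto apolipoprotein A-I, had the most counts of the subfamily and was called in no comparison. It was at 263 and 168 CPM in the intact Nkx libraries, 185 and 255 in the castrates, and 155 and 74.7 in the Clu line. The 2 Clu intact libraries were lowest, at values that differed from each other by more than either Nkx pair did in ratio. The leukocyte markers, summed above, were also lowest there. Of 14 tested, 0 were called after castration. In Clu intact 2 were lower and 0 higher than in Nkx intact, and 3 and 0 against Nkx castrate. Of the castrates, the leukocyte sum was higher in Nkx castrate 1 and Abca1 in Nkx castrate 2. The part of leukocyte RNA in the levels of Abca1 and Abcg1 was not tested. The log2 fold change of Abca1 was -0.90 (SE 0.37) against Nkx intact and -0.94 (SE 0.37) against Nkx castrate, with adjusted p of 0.165 and 0.12 (edgeR quasi-likelihood, Benjamini-Hochberg). Leaving out Clu intact 1 gave -1.51 and -1.53, and leaving out Clu intact 2 gave -0.46 and -0.48. It was called lower than in Nkx intact on omission of either castrate Nkx library and without the filter on low counts, and lower than in Nkx castrate on omission of Nkx castrate 1 or Clu intact 1, without the filter and by DESeq2. Of the other tested Abca genes, Abca4 and Abca7 were called in no comparison either (without Nkx castrate 1, Abca7 was called lower after castration and higher in Clu intact than in Nkx castrate, and without the filter Abca4 was called lower in the latter), and 4 genes of the cluster related to Abca6 are described below with marker RNA.

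Abcb1a encodes P-glycoprotein, the drug pump of the blood-brain barrier, which is abundant in vascular endothelium, and it was called higher in Clu intact than in Nkx intact. It was at 1.44 and 1.19 CPM in the intact Nkx libraries, 23.5 and 3.1 in the castrates, and 25.6 and 10.3 in the Clu line. The 2 castrate libraries differed from each other. Nkx castrate 1 lay between the 2 Clu intact libraries, and Nkx castrate 2 lay above both Nkx intact libraries and below both Clu intact ones. The log2 fold change was 3.77 (SE 0.96) in Clu intact against Nkx intact (adjusted p = 0.044, edgeR quasi-likelihood, Benjamini-Hochberg), 3.34 (SE 0.95) after castration (adjusted p = 0.0746) and 0.43 (SE 0.81) in Clu intact against Nkx castrate (adjusted p = 0.761). The first value was 2.98 without Clu intact 1, and its call was lost without either intact Nkx library or either Clu library (adjusted p of up to 0.25) and under limma-voom. The castration value was 1.24 without Nkx castrate 1, and it was 4.14 and called without Nkx castrate 2. It was also called without the filter on low counts, with the replicate number as a block and by DESeq2. Against Nkx castrate the value was 2.53 and called higher without Nkx castrate 1, -0.37 without Nkx castrate 2, -0.34 without Clu intact 1 and 0.97 without Clu intact 2, so its direction rests on single libraries.

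Endothelial marker RNA moved with Abcb1a over the libraries. The 12 markers, summed above, were high in the same 3 libraries (Nkx castrate 1 and both of Clu intact). Of the 12, 6 were called higher and 0 lower in Clu intact against Nkx intact, 0 were called in either direction after castration, and 1 was higher and 0 lower in Clu intact against Nkx castrate. All 12 had a count in every library except Cldn5, at 0 in Nkx intact 2. The numbers higher and lower after castration were 11 and 0 on omission of Nkx castrate 2. With Clu intact against Nkx intact they were 1 and 0 on omission of Nkx intact 1 or Clu intact 1, 0 and 0 on omission of Nkx intact 2, and 11 and 0 on omission of either castrate Nkx library. Against Nkx castrate they were 12 and 0 on omission of Nkx castrate 1, 2 and 0 on omission of Nkx castrate 2, and 0 and 0 on omission of Clu intact 1. Unadjusted, by DESeq2 and by limma-voom the counts of 0 from edgeR were 8, 2 and 0 for those higher after castration, and 0, 0 and 0 for those lower after castration, lower in Clu intact than in Nkx intact and lower in Clu intact than in Nkx castrate. The 6 called higher in Clu intact against Nkx intact became 0 by limma-voom, 9 by DESeq2, 10 with the replicate block and 11 without the filter or with only these 2 groups. After castration the 0 called higher became 10 without the filter and 5 with the block, and the 1 higher than in Nkx castrate became 9 and 7. Per 1000 CPM of the summed markers, Abcb1a stood at 17.4 and 20.8 CPM in the intact Nkx libraries, 45.3 and 41.4 in the castrates, and 21.7 and 21.4 in the Clu line. This ratio spanned 2.61-fold from lowest to highest, where Abcb1a itself spanned 21.6-fold. Both castrate libraries were above every intact library in this ratio. For Abcg2, also known from endothelium, the ratio to the same markers spanned 9.47-fold, where Abcg2 itself spanned 15.25-fold. The part of endothelial RNA in the level of Abcb1a was not tested. Reads of Abcb1a and of its close copy Abcb1b can be shared, so how counts split between them is uncertain; Abcb1b was at 4.5 and 2.77 CPM in the intact Nkx libraries, 6.34 and 1.33 in the castrates, and 2.45 and 1.88 in the Clu line. Exons of Abcb1a also overlap a gene model on the opposite strand over 10.1% of their length in the earlier annotation. Such overlaps also cover 9.75% of the exon length of Abca3, a called member, and 10.3% of that of Abcb10.

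**Figure D5:**
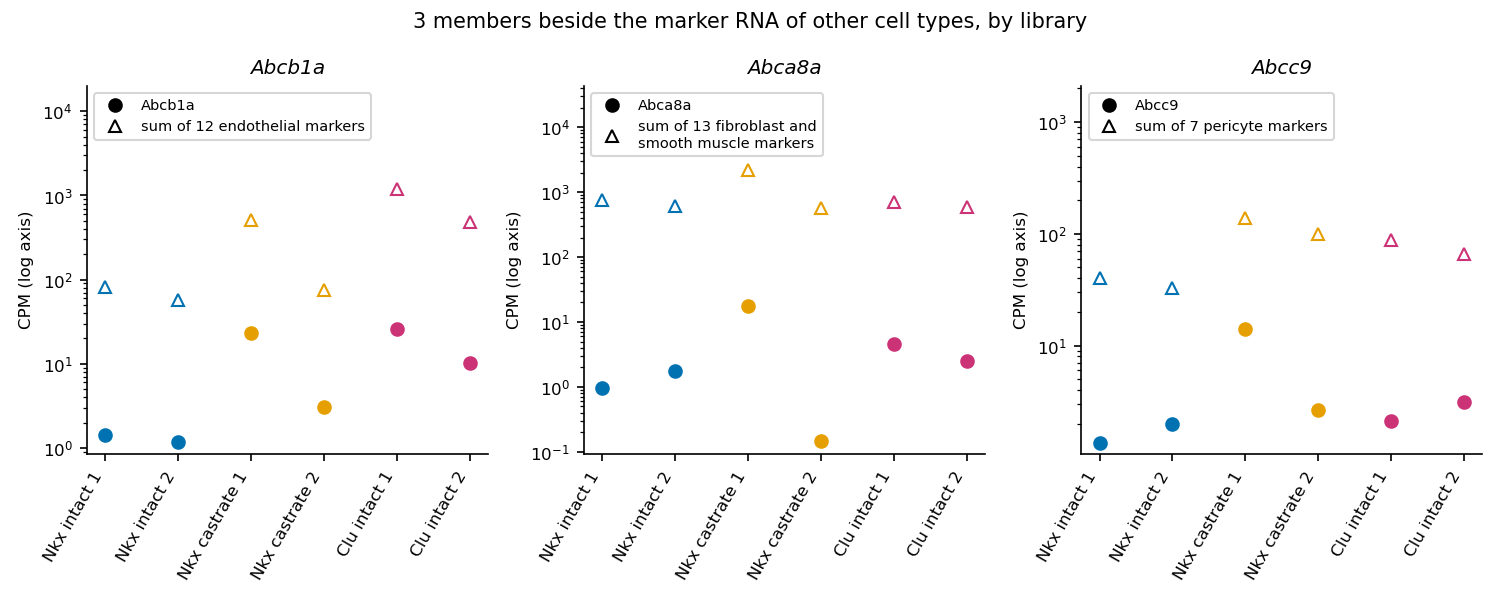
CPM (log axis) in each library of Abcb1a, Abca8a and Abcc9 (filled circles) beside the summed CPM of the markers of endothelium, of fibroblasts and smooth muscle, and of pericytes (open triangles). Abcb1a and the endothelial sum are highest in Clu intact 1, at 25.6 and 1179 CPM.

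Several members were high in 1 library of a group, and these were chosen after their values were seen. Abca6, Abca8a, Abca8b and Abca9, neighbouring genes of related sequence, were highest in Nkx castrate 1. Abca8a was at 0.957 and 1.78 CPM in the intact Nkx libraries, 17.7 and 0.148 in the castrates, and 4.56 and 2.54 in the Clu line. Abca9 was at 5.55 and 5.93 CPM in the intact Nkx libraries, 15.4 and 0.887 in the castrates, and 1.6 and 1.88 in the Clu line. Abca6 and Abca8b reached 7.41 and 6.85 CPM there and stayed at 1.72 CPM or lower in the other libraries. Abcc9, the sulfonylurea receptor subunit of vascular potassium channels, was at 1.34 and 1.98 CPM in the intact Nkx libraries, 14.1 and 2.66 in the castrates, and 2.11 and 3.1 in the Clu line. None of these 5 was called in any comparison. Without Nkx castrate 2, which leaves Nkx castrate 1 alone to stand for its group, Abca8a and Abcc9 were called higher after castration, as they were without the filter on low counts, and Abca6, Abca8a, Abca9 and Abcc9 were called lower in Clu intact than in Nkx castrate. Without Nkx castrate 1, Abca8a was called in the opposite direction: its log2 fold change in Clu intact against Nkx castrate was -1.33 with all libraries (adjusted p = 0.552, edgeR quasi-likelihood, Benjamini-Hochberg), 4.49 without Nkx castrate 1 (adjusted p = 0.0317) and -2.31 without Nkx castrate 2 (adjusted p = 0.0119). Abca9 was also called lower than in Nkx intact without Nkx castrate 2 and in a fit of these 2 groups alone, and lower than in Nkx castrate without the filter. The 13 fibroblast and smooth muscle markers, summed above, were also highest in Nkx castrate 1, with every marker detected in all libraries. Of them 7 rose and 0 fell after castration, 0 were called in Clu intact against Nkx intact, and 0 were higher and 2 lower in Clu intact against Nkx castrate. The numbers higher and lower after castration were 0 and 0 on omission of either intact Nkx library, 6 and 4 on omission of Nkx castrate 1, and 8 and 2 on omission of Nkx castrate 2. With Clu intact against Nkx intact they were 6 and 1 on omission of Nkx castrate 1, and 7 and 1 on omission of Nkx castrate 2. Against Nkx castrate they were 0 and 1 on omission of Nkx intact 1, 3 and 1 on omission of Nkx castrate 1, 3 and 9 on omission of Nkx castrate 2, and 0 and 0 on omission of either Clu library. For edgeR's counts of 0, the numbers at an unadjusted p under 0.05, by DESeq2 and by limma-voom were 0, 0 and 0 for those lower after castration, 4, 3 and 0 for those higher in Clu intact than in Nkx intact, 1, 0 and 0 for those lower in Clu intact than in Nkx intact, and 1, 0 and 1 for those higher in Clu intact than in Nkx castrate. The 7 pericyte markers summed to 40.4 and 32.6 CPM in the intact Nkx libraries, 139 and 99.1 in the castrates, and 88.2 and 65.5 in the Clu line, with Higd1b at 0 in Nkx intact 2 and both Clu intact libraries and Ndufa4l2 at 0 in Nkx castrate 2. Per 1000 CPM of the summed fibroblast and smooth muscle markers, Abca8a spanned 30.45-fold over the libraries, Abca9 6.1-fold, Abca6 5.19-fold and Abcc9 3.56-fold. The genes themselves spanned 119.9-fold, 17.3-fold, 19.7-fold and 10.5-fold in this order. Abca8b, at 0 in Nkx intact 2, gave no span. The fibroblast and smooth muscle sum pools 2 cell types whose markers did not move alike. Without Nkx castrate 1, the log2 fold change after castration was 2.24 for Acta2 and 2.19 for Myh11, both of smooth muscle. With all libraries these were 3.37 and 3.42. For Lum, of fibroblasts, it was 1.69 without Nkx castrate 1 and 4.76 with all libraries. Per 1000 CPM of the pericyte markers Abcc9 spanned 4.24-fold. The part of stromal RNA in the levels of these members was not tested.

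Abcb8 and Abcb10, carriers of the inner mitochondrial membrane, were not called in any comparison, nor was Abcb9, a lysosomal peptide transporter. These and Abcb5 were chosen after their values were seen. Abcb8 was at 13.8 and 11.7 CPM in the intact Nkx libraries, 6.06 and 19.1 in the castrates, and 20.5 and 18.2 in the Clu line, and Abcb10 at 16.2 and 16.9 CPM in the intact Nkx libraries, 9.77 and 18.4 in the castrates, and 18.6 and 17.5 in the Clu line. Abcb5, a drug exporter, was at 1.15 and 1.78 CPM in the intact Nkx libraries, 0.337 and 0.296 in the castrates, and 0.928 and 3.01 in the Clu line. Without Nkx castrate 2, Abcb8 was called higher in Clu intact than in Nkx castrate. Abcb6 did not pass the filter.

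Abcd3, a peroxisomal fatty acid importer and the subfamily's highest member per length, was higher in Clu intact than in Nkx castrate. It was at 101 and 106 CPM in the intact Nkx libraries, 67.7 and 122 in the castrates, and 183 and 221 in the Clu line. Both Clu intact libraries were above all Nkx libraries, and the 2 castrate libraries lay on either side of the Nkx intact ones. Its log2 fold change was 1.09 (SE 0.27) against Nkx castrate (adjusted p = 0.0304, edgeR quasi-likelihood, Benjamini-Hochberg), called, and 0.97 (SE 0.27) against Nkx intact (adjusted p = 0.0618), not called. The call was lost without either intact Nkx library or either Clu library (adjusted p of up to 0.179) and when only these 2 groups were fitted. Against Nkx intact it was called without either Nkx castrate library, by DESeq2, with the replicate number as a block, without the filter and in a fit of these 2 groups alone. Abcd4, which serves cobalamin export from lysosomes, was not called.

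The members without a membrane domain were called in no comparison. Abce1, which splits ribosomes for recycling, was at 110.2 and 131 CPM in the intact Nkx libraries, 100.2 and 156 in the castrates, and 98.7 and 113 in the Clu line. Abcf1, which acts in translation initiation, was at 197 and 198 CPM in the intact Nkx libraries, 192 and 238 in the castrates, and 213 and 239.6 in the Clu line. For the 4 genes Abce1 and Abcf1 to Abcf3, log2 fold changes lay between -0.18 and 0.12 after castration, between -0.19 and 0.20 in Clu intact against Nkx intact, and between -0.30 and 0.09 in Clu intact against Nkx castrate. Without Nkx castrate 1, Abce1 was called lower in Clu intact than in Nkx castrate (log2 fold change -0.56). That these genes did not pass the test does not show that they were equal.

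The Abcg genes had few counts. Abcg5 and Abcg8 encode the partner subunits of a sterol exporter and are neighbours on opposite strands. Abcg5 was at 2.49 and 0.296 CPM in the intact Nkx libraries, 0 and 0 in the castrates, and 5.91 and 2.45 in the Clu line. No count was found in either castrate library, while both intact groups had some. Against a floor of 3 counts over the 2 castrate libraries (0.0957 CPM), Abcg5 was at least 44.6-fold higher in Clu intact and at least 14.7-fold higher in Nkx intact. The first bound was 25.5-fold without Clu intact 1 and 61.7-fold without Clu intact 2, and 19.2-fold and 25.4-fold when Nkx castrate 1 or 2 was left out and the floor rested on 1 library. The other rested on Nkx intact 1: without it 3 counts were left, at the floor, which give no bound, while without Nkx intact 2 it was 26.0-fold and on omission of a castrate library 6.35-fold or 8.37-fold. The first difference was called (adjusted p = 0.0244, edgeR quasi-likelihood, Benjamini-Hochberg) and the other was not (adjusted p = 0.0752), though it was by DESeq2 and without the filter on low counts. The call was lost without either Clu library (adjusted p of up to 0.149) and under limma-voom. Abcg8, chosen after its values were seen, was at 0.765 and 2.17 CPM in the intact Nkx libraries, 0.112 and 0 in the castrates, and 1.52 and 1.5 in the Clu line. With 2 counts in Nkx castrate against 34 in Clu intact and 30 in Nkx intact, the ratios were 23.7 (95% counting interval 6.08 to 204) and 22.9 (5.80 to 197), and neither was called other than by DESeq2, which called both. The 2 genes' exons overlap on opposite strands over 3.02% of the length of Abcg5 and 2.19% of that of Abcg8. Abcg1, a sterol exporter to high density lipoprotein with the highest mean CPM of the subfamily, was at 13.6 and 3.06 CPM in the intact Nkx libraries, 10.8 and 3.1 in the castrates, and 1.69 and 1.5 in the Clu line. The 2 libraries of each Nkx group differed, and the Clu intact libraries were below all 4. The log2 fold change in Clu intact was -2.38 (SE 0.88) against Nkx intact and -2.12 (SE 0.87) against Nkx castrate, with adjusted p of 0.134 and 0.135, not called. It was called lower than in Nkx intact on omission of either castrate Nkx library, without the filter, by DESeq2 and in a fit of these 2 groups alone, and lower than in Nkx castrate without Nkx castrate 2 and without the filter. The value was -3.08 and -0.92 against Nkx intact without Nkx intact 2 and 1, and -0.95 and -2.74 against Nkx castrate without Nkx castrate 1 and 2. Abcg2, a drug and urate exporter known from stem-like cells and endothelium, was at 5.17 and 0.691 CPM in the intact Nkx libraries, 9.65 and 4.44 in the castrates, and 10.6 and 3.2 in the Clu line. Abcg4, related to Abcg1, was at 2.68 and 2.57 CPM in the intact Nkx libraries, 1.68 and 0 in the castrates, and 4.98 and 3.76 in the Clu line. Neither of these, also chosen after their values were seen, was called; without Nkx castrate 1, Abcg4 was called lower after castration and higher in Clu intact than in Nkx castrate.

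Of the 3 ABC proteins with other symbols, Cftr was called. Cftr encodes the chloride channel of cystic fibrosis, a member of the family that works as an ion channel. It was at 0 and 0 CPM in the intact Nkx libraries, 1.24 and 2.96 in the castrates, and 2.28 and 4.7 in the Clu line. Both Nkx intact libraries were at 0, and against a floor of 3 counts over them (0.146 CPM) Cftr was at least 13.6-fold higher in Nkx castrate and at least 23.5-fold higher in Clu intact, with adjusted p of 0.0401 and 0.0233 (edgeR quasi-likelihood, Benjamini-Hochberg). The bound for Nkx castrate was 20.3-fold without Nkx castrate 1, 8.47-fold without Nkx castrate 2, and 6.67-fold and 6.89-fold when Nkx intact 1 or 2 was left out and the floor rested on 1 library. That for Clu intact was 32.3-fold and 15.6-fold without Clu intact 1 and 2, and 11.6-fold and 11.9-fold without Nkx intact 1 and 2. The castration call was lost without either intact Nkx library or either Clu library (adjusted p of up to 0.178) and the other without either intact Nkx library or either Clu library (up to 0.16). Tap1 and Tap2, the peptide transporter that supplies class I antigen presentation, were not called. Tap1 was at 16.2 and 20.4 CPM in the intact Nkx libraries, 29.8 and 28.5 in the castrates, and 31.0 and 31.4 in the Clu line, and Tap2 at 19.99 and 15.3 CPM in the intact Nkx libraries, 27.3 and 33.9 in the castrates, and 28.4 and 27.4 in the Clu line, with the Nkx intact libraries lowest for both (adjusted p = 0.13 and 0.105 after castration). Without Nkx castrate 1, 2 of the 3 genes were called higher after castration, and 2 were called higher in Clu intact against Nkx intact without either Nkx castrate library. Where edgeR gave 0, the unadjusted, DESeq2 and limma-voom counts were 0, 0 and 0 for those lower after castration, lower in Clu intact than in Nkx intact, higher in Clu intact than in Nkx castrate and lower in Clu intact than in Nkx castrate.

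Prostaglandins are among the known cargo of Abcc4, and a few of their genes were called. For this list and those below, the shares of all genes called in either direction were 8.61%, 11.3% and 16.9% in the 3 comparisons. Of 11 tested prostaglandin genes of 14, 1 rose and 2 fell after castration. Ptgs1, a cyclooxygenase, fell to 11.8 ± 0.569 CPM from 63.2 ± 9.82 (SD, n = 2). The log2 fold change was -2.42 (SE 0.21, adjusted p = 0.00101, edgeR quasi-likelihood, Benjamini-Hochberg). In Clu intact Ptgs1 was at 90.4 ± 0.471 CPM (SD, n = 2). By group mean it was lowest in Nkx castrate and highest in Clu intact, as Abcc4 was. Unlike Abcc4, it was not called between the intact lines. Ptger3, a prostaglandin E receptor, fell to 6.36 ± 0.103 CPM from 62.9 ± 11.8 (SD, n = 2; log2 fold change -3.30, SE 0.38). Hpgd, which inactivates prostaglandins, rose (log2 fold change 1.17, SE 0.20), a call lost without either intact Nkx library (edgeR quasi-likelihood, Benjamini-Hochberg adjusted p at most 0.159). The numbers that rose and fell were 0 and 2 on omission of either intact Nkx library, 2 and 4 on omission of Nkx castrate 1, and 2 and 3 on omission of Nkx castrate 2. Between the intact lines 1 was higher in Clu (Pla2g4a) and 1 lower (Ptger3). These counts were 0 and 0 on omission of either intact Nkx library or Clu intact 2, 2 and 1 on omission of either castrate Nkx library, and 0 and 1 on omission of Clu intact 1. Against Nkx castrate 3 were higher (Ptgs1, Ptger3 and Pla2g4a) and 1 lower (Hpgd). These counts were 1 and 0 on omission of either intact Nkx library or Clu intact 1, 3 and 2 on omission of Nkx castrate 2, and 2 and 0 on omission of Clu intact 2. The list's median log2 fold change was 0.27, 0.01 and 0.02 in the 3 comparisons.

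Solute carriers of organic anions and cations, which take up many substrates that Abcc proteins export, fell after castration in 3 cases. Of 13 tested of 20, 0 rose and 3 fell after castration, Slco1a5 and Slco4c1 among them. Slco4c1, an anion transporter, was at 43.5 and 49.8 CPM in the intact Nkx libraries, 5.28 and 18.0 in the castrates, and 111 and 115 in the Clu line. Its log2 fold change of -2.01 (SE 0.48, adjusted p = 0.0415, edgeR quasi-likelihood, Benjamini-Hochberg) became -1.37 when Nkx castrate 1 was left out and -3.15 when Nkx castrate 2 was, and its call was lost without either intact Nkx library or either Clu library (adjusted p of up to 0.225), as was that of Slco1a5 without either intact Nkx library (up to 0.1). The numbers that rose and fell were 0 and 1 on omission of either intact Nkx library, 0 and 6 on omission of Nkx castrate 1, and 2 and 4 on omission of Nkx castrate 2. Clu intact had 1 higher than Nkx intact (Slc22a5, a carnitine transporter) and 2 lower, Slco4a1 among them. These counts were 0 and 0 on omission of Nkx intact 1 or either Clu library, 0 and 1 on omission of Nkx intact 2, and 2 and 2 on omission of either castrate Nkx library. Against Nkx castrate 4 were higher and 0 lower. These counts were 7 and 0 on omission of Nkx castrate 1, 4 and 1 on omission of Nkx castrate 2, and 1 and 0 on omission of Clu intact 2. At an unadjusted p under 0.05, by DESeq2 and by limma-voom, edgeR's 0 became 2, 0 and 0 for those higher after castration, and 2, 1 and 0 for those lower in Clu intact than in Nkx castrate. The median log2 fold change was -0.74, 0.17 and 1.12. The prostaglandin carrier Slco2a1, in both lists, was called in no comparison.

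Partners of cholesterol efflux showed calls in both directions. Of 13 tested of 14, 1 rose (Soat1, which esterifies cholesterol) and 2 fell (Apoe and Npc2) after castration. Apoe, the gene of apolipoprotein E, was at 1673 and 1591 CPM in the intact Nkx libraries, 793 and 300.1 in the castrates, and 262 and 309 in the Clu line. Its log2 fold change of -1.58 (SE 0.40) was -2.44 without Nkx castrate 1, and the call was lost without either intact Nkx library or either Clu library (edgeR quasi-likelihood, Benjamini-Hochberg adjusted p at most 0.22). Soat1 rose to 98.6 ± 34.5 CPM from 19.1 ± 8.84 (SD, n = 2; log2 fold change 2.37, SE 0.38), a call lost without Nkx intact 2 (adjusted p = 0.0844). The numbers that rose and fell were 1 and 0 on omission of Nkx intact 1 or either Clu library, 0 and 0 on omission of Nkx intact 2, 1 and 4 on omission of Nkx castrate 1, and 2 and 2 on omission of Nkx castrate 2. Clu intact had 2 higher than Nkx intact (Scarb1 and Mylip) and 2 lower, Apoe among them. These counts were 0 and 1 on omission of Nkx intact 1 or Clu intact 2, 0 and 0 on omission of Nkx intact 2 or Clu intact 1, and 2 and 4 on omission of either castrate Nkx library. Against Nkx castrate 1 was higher (Npc2) and 2 lower, Soat1 among them. These counts were 3 and 2 on omission of Nkx castrate 1, 1 and 5 on omission of Nkx castrate 2, and 0 and 2 on omission of either Clu library. Of 9 tested of 12 receptors and factors that control ABC genes, 2 rose (Ahr and Pparg) and 1 fell (Rxra) after castration. Ahr, the aryl hydrocarbon receptor gene, was at 79.0 and 94.0 CPM in the intact Nkx libraries, 441 and 508 in the castrates, and 99.0 and 86.8 in the Clu line, with both castrate libraries above the other 4 (log2 fold change 2.45, SE 0.19, adjusted p = 0.000742). The numbers that rose and fell were 1 and 0 on omission of either intact Nkx library, Nkx castrate 2 or either Clu library. In Clu intact against Nkx intact 1 was higher (Pparg) and 1 lower (Nfe2l2), and against Nkx castrate 2 were higher (Pparg and Rxra) and 2 lower (Ahr and Nfe2l2). The first pair of counts were 0 and 0 on omission of either intact Nkx library, 2 and 3 on omission of Nkx castrate 1, 2 and 2 on omission of Nkx castrate 2, and 1 and 0 on omission of either Clu library. The other pair were 1 and 2 on omission of either intact Nkx library or Clu intact 1, and 1 and 1 on omission of Clu intact 2. The liver X receptor gene Nr1h2, whose product activates Abca1 and Abcg1, was at 145 and 122 CPM in the intact Nkx libraries, 124 and 119.5 in the castrates, and 116 and 104 in the Clu line and was not called.

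Peroxisomal genes include the enzymes that shorten the fatty acids imported by Abcd proteins. Of 17 tested of 18, 0 were called in either direction after castration, 1 was higher (Cat, catalase) and 0 lower in Clu intact against Nkx intact, and 3 were higher (Cat, Crot and Acox3) and 1 lower (Pex3) against Nkx castrate. Cat was at 21.7 and 32.9 CPM in the intact Nkx libraries, 35.4 and 65.5 in the castrates, and 131 and 149 in the Clu line. After castration the counts were 3 and 1 on omission of Nkx castrate 1, and 0 and 5 on omission of Nkx castrate 2. With Clu intact against Nkx intact they were 0 and 0 on omission of Nkx intact 1, 4 and 4 on omission of Nkx castrate 1, and 4 and 3 on omission of Nkx castrate 2. Against Nkx castrate they were 2 and 0 on omission of either intact Nkx library, 3 and 2 on omission of Nkx castrate 1, 7 and 1 on omission of Nkx castrate 2, 1 and 0 on omission of Clu intact 1, and 0 and 0 on omission of Clu intact 2. Unadjusted, by DESeq2 and by limma-voom the counts of 0 from edgeR were 2, 0 and 0 for those higher after castration and lower in Clu intact than in Nkx intact, and 4, 1 and 0 for those lower after castration. Of 16 heme and iron-sulfur genes, 1 rose (Slc25a37) and 0 fell after castration, 1 was higher (Alas1) and 0 lower in Clu intact against Nkx intact, and 3 were higher, Alas1 and Iscu among them, and 1 lower (Slc25a37) against Nkx castrate. After castration these counts were 0 and 0 on omission of either intact Nkx library, 2 and 3 on omission of Nkx castrate 1, and 1 and 2 on omission of Nkx castrate 2. With Clu intact against Nkx intact they were 0 and 0 on omission of either intact Nkx library or either Clu library, and 2 and 1 on omission of either castrate Nkx library. Against Nkx castrate they were 1 and 1 on omission of either intact Nkx library, 4 and 2 on omission of Nkx castrate 1, 0 and 1 on omission of Clu intact 1, and 1 and 0 on omission of Clu intact 2. For edgeR's counts of 0, the numbers at an unadjusted p under 0.05, by DESeq2 and by limma-voom were 5, 1 and 0 for those lower after castration, and 1, 1 and 0 for those lower in Clu intact than in Nkx intact. Of 13 partners in ribosome recycling and initiation, 0 were called after castration, and 1 was higher and 1 lower (Etf1) in Clu intact against each Nkx group. Against Nkx intact these counts were 0 and 0 on omission of either intact Nkx library or either Clu library, and 1 and 2 on omission of either castrate Nkx library. Against Nkx castrate they were 1 and 2 on omission of Nkx castrate 1, and 0 and 0 on omission of either Clu library. Where edgeR gave 0, the unadjusted, DESeq2 and limma-voom counts were 0, 0 and 0 for those higher after castration, and 1, 0 and 0 for those lower after castration. Of the potassium channel partners of Abcc8 and Abcc9, Kcnj8 was tested and Kcnj11 was not. In the Clu libraries 1 count was worth 0.0844 and 0.0941 CPM, so the low values of Kcnj8 there rest on very few counts. The size of its fold change is therefore uncertain. Kcnj8 was at 1.53 and 1.38 CPM in the intact Nkx libraries, 3.03 and 3.1 in the castrates, and 0.169 and 0.188 in the Clu line and was called lower in Clu intact than in Nkx castrate (log2 fold change -4.03, SE 0.99, adjusted p = 0.0288, edgeR quasi-likelihood, Benjamini-Hochberg), a call lost without either intact Nkx library or either Clu library (up to 0.24).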

How the data were processed

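RNA of sorted cells was sequenced in 6 libraries from 2 ng of total RNA with a stranded total RNA kit, per the labels' protocols. The deposited values are raw counts per gene symbol. The submitters' processing notes name FastQC 0.11.9, STAR 2.7.9a, featureCounts of Subread 2.0.1 and build GRCm39. How strand and reads shared between genes were counted is not given in the sources used here, so overlapping and near-identical genes are uncertain. Libraries held 10220118 to 17412874 counts, and the smallest had the coarsest step, 0.0988 CPM per count.

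Counts were filtered with filterByExpr and scaled by TMM (factors 0.945 to 1.04), and a quasi-likelihood model with group means was fitted to all 6 libraries (edgeR 4.0.16, R 4.3.3, 3 residual degrees of freedom). The same fit gave the 3 comparisons, with Benjamini-Hochberg adjustment over 13846 genes. The fitting code was tested on simulated counts with 200 changed genes and 1 common spread for all genes, which differs from the data. Of 2-fold changes 2% to 2.4% were called, and of 4-fold changes 49.4% to 56.2%. Unchanged genes made up 2.51% to 4.64% of the calls. A gene that was not called may therefore still differ between groups. Group values are mean ± SD over 2 libraries. Floors (3 counts over a group) and 95% counting intervals cover counting error only. Exon lengths came from GENCODE M21 (GRCm38), and promoters from RefSeq. Genes given in full are Abcc4, members called in any comparison and the member with the highest mean CPM of each subfamily; 1 of these and a few other genes are not reported here. The members, roles, marker lists and pathway lists were chosen with earlier results of these data known. Alternatives were DESeq2 1.42.0, limma-voom (limma 3.58.1), RLE scaling, other filters, a block for the replicate number, fits of 2 groups alone, and each library left out. The labels give the groups shared replicate numbers, but with 2 libraries each and same-number correlations of 0.115, 0.0706 and 0.28 these were not treated as pairs.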

Additional observations from a re-analysis of the deposited data

How the results depend on the processing

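Under RLE scaling and the filter of at least 1 CPM in 2 libraries the same ABC genes were called as in the main fit in all 3 comparisons. For castration, the ABC genes called higher (0) became 3 without a filter on low counts, 1 by DESeq2 and 1 with the replicate number as a block, and those called lower (2) became 4 by DESeq2. Over all genes, 1197 higher and 1103 lower were called without the filter, 973 higher by DESeq2, and 297 higher and 374 lower with only the groups compared. For Clu intact against Nkx intact, the ABC genes called higher (5) became 3 by limma-voom and 8 with only the groups compared, and those called lower (0) became 3 without the filter, 2 by DESeq2, 1 with the replicate block and 3 with only the groups compared. Over all genes, 1467 higher and 1198 lower were called without the filter, 1101 lower by DESeq2, and 1761 higher and 1548 lower with only the groups compared. For Clu intact against Nkx castrate, the ABC genes called higher (7) became 4 with only the groups compared, and those called lower (0) became 4 without the filter and 1 by DESeq2, while 1736 of all genes were called lower without the filter. With each library left out in turn (the lone library of a group is then assumed to vary like the others), ABC genes called numbered 0 to 4 higher and 1 to 4 lower after castration, 1 to 8 and 0 to 4 in Clu intact against Nkx intact, and 3 to 11 and 0 to 5 in Clu intact against Nkx castrate. Over all genes these ranges were 72 to 1220 and 137 to 1323, 214 to 1790 and 157 to 1561, and 417 to 2010 and 270 to 1844. Abca8a in Clu intact against Nkx castrate was called in opposite directions without Nkx castrate 1 (higher) and without Nkx castrate 2 (lower), and no other ABC gene was called in both directions of a comparison; the cause of these changes was not tested. The castration calls of Abca5 and Abcc4 held in every alternative other than the omission of Nkx intact 2 for Abcc4. Depth limits Abcg5, Abcg8, Cftr and Kcnj8, for which 1 count in the smallest library is 0.0988 CPM.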
